A study of Mus musculus with 7 samples.

Results

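Transcripts of 10 genes for secreted signals that act on immune cells were followed in cultured LLC1 cells, a mouse Lewis lung carcinoma line, with and without knockdown by shRNA of Ddx54, which encodes a DEAD-box helicase of the nucleolus. The genes were chosen by symbol: the chemokines Ccl2, Ccl5, Ccl7, Cxcl1, Cxcl5, Cxcl10 and Cx3cl1, the colony-stimulating factor Csf1, and the cytokines Il33 and Il18. All 10 were rows of the deposited table of raw read counts, which holds 24419 genes. The knockdown group held 3 libraries labelled as DDX54 knockdown, set against 4 libraries labelled as wild-type (WT) for DDX54. All 7 libraries were of polyadenylated RNA from cells grown in DMEM with 10% FBS. No control construct for the WT cells, no shRNA sequence, and no clone or pool is named. Nor is it said that replicates were grown apart, so the spread behind the p-values may be technical.

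Chemokines are small secreted proteins that attract leukocytes through G protein-coupled receptors, and each one draws the cells that carry its receptor. In tumours, Ccl2 and Ccl7 draw monocytes through Ccr2, Cxcl1 and Cxcl5 draw neutrophils through Cxcr2, and Ccl5 and Cxcl10 draw T cells, Cxcl10 through Cxcr3. Csf1 keeps macrophages alive through Csf1r, and Il33 and Il18 are cytokines of the interleukin-1 family that leave stressed or dying cells.

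Libraries held 14987324 to 17702932 counts in knockdown and 15293346 to 18673395 in WT. Ddx54 was at 43.6 ± 3.81 CPM (read counts scaled to library size) in knockdown (SD, n = 3) and at 81.2 ± 2.08 CPM in WT (SD, n = 4), and no library went against its label. The pre-ribosomal transcript Rn45s took 8.53 ± 0.55% of counts in knockdown (SD, n = 3) and 11.6 ± 0.83% in WT (SD, n = 4), and the fold change of Csf1 was -0.88 log2 units both with and without it. Of the 13 leukocyte markers listed, 1 could be tested, and Ptprc, which encodes CD45, had 0 reads in all 3 knockdown libraries and 2 reads in 1 WT library. The summed level of these markers was 3.51 to 5.59 CPM in knockdown and 2.96 to 5.69 CPM in WT, of which Cd68 gave 3.74 CPM in knockdown and 3.63 CPM in WT. This sum hides Fcer1g, too low to test, with 7, 8 and 3 reads in knockdown and 1, 0, 0 and 1 in WT, groups that did not overlap. Fcgr3, also too low to test, leaned the other way, with 14 reads over knockdown and 37 over WT and overlapping groups. The endothelial markers summed to 25.0 to 35.9 CPM in knockdown and 28.8 to 30.7 CPM in WT, nearly all of it Eng, while Cdh5, Tek and Tie1 had no read. The fibroblast markers summed to 1060 to 1128 CPM in knockdown and 1048 to 1239 CPM in WT, nearly all of it the collagen Col3a1, and 0 of the 6 tested passed, with Thy1 at 0. The sum does not show less abundant markers whose groups did not overlap. Acta2, smooth muscle actin, was at 2.39, 0.71 and 1.37 CPM in knockdown and at 3.05, 3.19, 3.99 and 3.67 CPM in WT (adjusted p = 0.0542, edgeR), and it passed in 4 of 15 alternatives (adjusted p from 0.0205 to 0.045). Pdgfra, a receptor of mesenchymal cells, was at 24.5 ± 1.23 CPM in knockdown and 18.99 ± 0.78 CPM in WT (SD, n = 3 and n = 4, adjusted p = 0.0578, edgeR), and it passed with DESeq2 (adjusted p = 0.0323). The epithelial markers summed to 150.1 to 168.0 CPM in knockdown and 239.1 to 248.8 CPM in WT. Most of that was Krt18, lower at 131.7 CPM in knockdown against 217.5 CPM in WT, with Krt19 also lower and Krt8 not past the test, while Epcam had 2 reads in knockdown and 1 in WT, and Cldn4 had none. The lung alveolar markers were at 0 to 0.81 CPM in knockdown and 0 to 1.96 CPM in WT, with Nkx2-1 at 0. The part of other cell types in the results below was not tested.

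Of the 10 genes, 5 were lower in knockdown, 0 were higher, 3 did not pass the threshold and 2 had too few reads to test (edgeR quasi-likelihood test, Benjamini-Hochberg adjusted p under 0.05 over 11594 genes). For comparison, 15.3% of all tested genes were lower and 14.1% were higher, or 29.4% in either direction. The count of 5 lower genes was 2 without knockdown replicate 2 or 3, and 3 without knockdown replicate 1, WT replicate 1 or WT replicate 2. The median log2 fold change of the 8 tested genes was -0.62, against 0.001 over all tested genes. The genes were chosen with earlier results of these data known, so these counts and medians only describe them. Each of the 8 had enough reads for the test in all 3 knockdown and all 4 WT libraries, so none was tested through its high group alone. The knockdown libraries all lay below the WT libraries for 4 of the 8, as they did for 17.6% of all tested genes, while 35.1% had ranges apart in either direction. The 10 genes together summed to 119.0 to 138.9 CPM in knockdown and 169.7 to 197.2 CPM in WT, and Csf1 and Ccl2 made up 75.3 ± 1.61% of that sum in knockdown (SD, n = 3) and 76.0 ± 2.46% in WT (SD, n = 4).

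**Figure D1:**
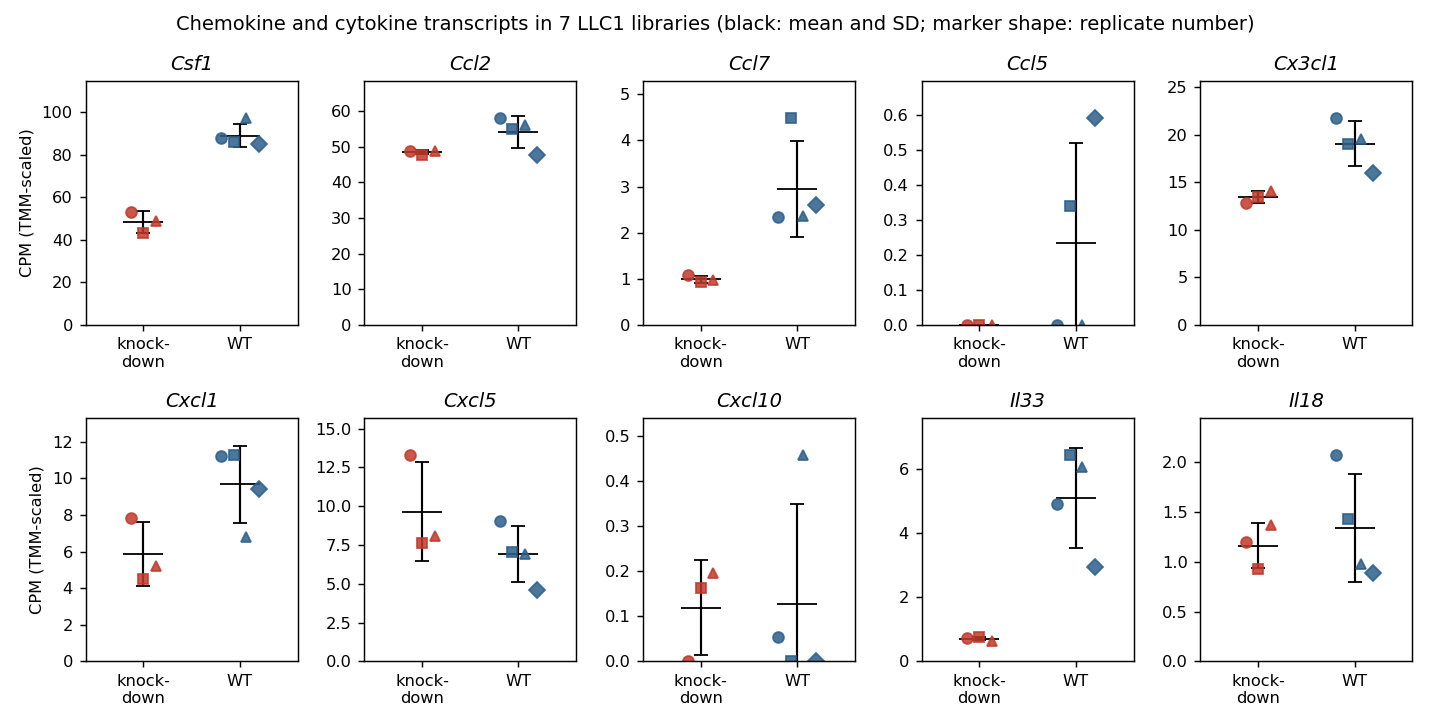
Level of each of the 10 genes in CPM (y axis, from 0, scaled by TMM factors) in 3 knockdown libraries (left, red) and 4 WT libraries (right, blue), with the group mean and SD in black and the replicate number as the marker shape. Csf1, Ccl7, Cx3cl1 and Il33 have all knockdown points below all WT points, while Ccl5 and Cxcl10 stay below 1 CPM in every library.

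Set per length, as CPM per kilobase of exon in the GENCODE model, Ccl2 was the most abundant of the 10 in both groups. It stood at 42.6 ± 0.56 CPM per kilobase in knockdown and 47.6 ± 3.98 in WT (SD, n = 3 and n = 4). Csf1 came next, at 9.14 ± 0.97 in knockdown and 16.8 ± 1.06 in WT on the same scale. In WT the next places were held by Cxcl1 (5.16 ± 1.12) and Cx3cl1 (4.85 ± 0.61), which differed by less than their SDs, and by Cxcl5 (3.71 ± 0.97) and Ccl7 (3.68 ± 1.29), which also did. In knockdown Cxcl5 (5.18 ± 1.70) stood above Cx3cl1 (3.42 ± 0.16) and Cxcl1 (3.12 ± 0.93), with Ccl7 lower (1.24 ± 0.096). Il33 was at 0.25 ± 0.019 in knockdown and 1.77 ± 0.54 in WT, and Il18 at 1.13 ± 0.22 in knockdown and 1.30 ± 0.52 in WT. In knockdown Il33 thus stood below Il18, and in WT above it by less than their SDs. Ccl5, listed at 0 in knockdown and at 0.24 in WT, and Cxcl10, at 0.053 in knockdown and 0.057 in WT, held the last places. The exon models behind the deposited counts may differ, so these lengths are approximate.

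Csf1, the growth and survival factor of macrophages, was the fall with the most reads behind it. Its protein-coding gene (ENSMUSG00000014599.10) spans bases 107741048 to 107760469 of chromosome 3, minus strand, in GRCm38. It was at 53.2, 42.9 and 48.7 CPM in the knockdown libraries and at 87.7, 85.7, 97.1 and 85.02 CPM in the WT libraries. Every knockdown library lay well below every WT library, and the spread within either group was small beside the gap. The knockdown mean was 54.3% of the WT mean, a log2 fold change of -0.88 with a 95% interval of -1.08 to -0.68 (adjusted p = 9.82e-09, edgeR quasi-likelihood). The gene's RefSeq promoter, from 250 bases before the start to 50 after it (GRCm38.p6, chr3:107760420-107760719, minus strand), is shown because Csf1 is the best measured of the genes that fell. Capitals mark the single match to the NF-kB consensus, which lies at positions -154 to -145 from the start, on the strand opposite to the gene.
Csf1 promoter: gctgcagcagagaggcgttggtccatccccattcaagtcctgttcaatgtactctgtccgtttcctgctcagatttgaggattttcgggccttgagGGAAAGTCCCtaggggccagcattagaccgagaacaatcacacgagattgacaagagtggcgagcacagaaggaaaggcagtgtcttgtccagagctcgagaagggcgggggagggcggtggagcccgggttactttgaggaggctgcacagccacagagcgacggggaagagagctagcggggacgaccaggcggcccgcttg

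By the distance between centred log2 profiles over the 7 libraries, the genes nearest to Csf1 were Grasp, Ndrg1 and Sema3e, at distances of 0.13, 0.18 and 0.21 log2 units. Sema3e, a secreted guidance factor, was at 85.6 ± 4.02 CPM in knockdown (SD, n = 3) and 152.3 ± 3.55 CPM in WT (SD, n = 4). Ndrg1, a gene induced by hypoxia, was at 72.99 ± 5.96 CPM in knockdown and 132.6 ± 13.01 CPM in WT, and Grasp, a scaffold protein, at 10.6 ± 1.07 CPM in knockdown and 18.9 ± 1.46 CPM in WT. Il34, the other ligand of Csf1r, was looked up after its values were seen. It was at 10.7 ± 0.49 CPM in knockdown and 14.8 ± 4.58 CPM in WT and did not pass (log2 fold change -0.47, adjusted p = 0.098, edgeR), with 2 WT libraries at 10.2 and 11.6 CPM and 2 at 18.6 and 18.9 CPM. Without WT replicate 1 it passed (-0.62, adjusted p = 0.0235, edgeR). In the other 14 of 15 alternatives Il34 did not pass, and its log2 fold change ran from -0.62 to -0.30 over all of them. The receptor Csf1r itself had 4 reads over the knockdown libraries and 3 over the WT libraries.

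The ligands of Ccr2, encoded side by side, gave different values. Ccl2 (82035571 to 82037453) and Ccl7 (82045712 to 82047525) both lie on the plus strand of chromosome 11, with 8258 bases between them (GRCm38/mm10). Ccl2, the main monocyte attractant, was at 48.8, 47.8 and 48.9 CPM in the knockdown libraries and at 58.1, 54.9, 56.1 and 47.7 CPM in the WT libraries. WT replicate 4 sat at the level of the knockdown libraries, so the groups overlapped. The log2 fold change of Ccl2 was -0.16 with a 95% interval of -0.37 to 0.054 and did not pass (adjusted p = 0.279, edgeR). The interval does not reach the fold change of Csf1.

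Ccl7, also called MCP-3, was far less abundant. It had 18, 17 and 15 reads in the knockdown libraries and 43, 66, 36 and 44 reads in the WT libraries, or 1.07, 0.92 and 0.98 CPM in knockdown and 2.34, 4.48, 2.35 and 2.61 CPM in WT. The groups did not overlap, and WT replicate 2 was the highest by a wide margin. The log2 fold change was -1.56 with a 95% interval of -2.69 to -0.43 (adjusted p = 0.031, edgeR). The call was lost in 6 of 14 alternatives, among them without WT replicate 2 (-1.29, adjusted p = 0.124, edgeR) and without any 1 of the knockdown libraries. Ccl2 and Ccl7 are related in sequence, and how multimapping reads were handled was not given in the sources used here. Ccl12, another mouse ligand of Ccr2, had 0 reads in all 7 libraries.

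Ccl5, a T cell and monocyte attractant also called RANTES, had 0, 0 and 0 reads in the knockdown libraries and 0, 5, 0 and 10 reads in the WT libraries. So 2 of the 4 WT libraries were at 0 like the knockdown ones, and the gene was too low to test. A floor of 3 counts over the knockdown group corresponds to 0.061 CPM. The 15 WT reads correspond to 0.22 CPM, with an exact Poisson 95% interval of 8.40 to 24.7 reads, which covers counting error only. The same interval for the 0 reads of the knockdown group reached up to 3.69 reads. These limits are in reads, out of 49048169 counts in knockdown and 66759434 in WT. The count intervals did not meet, but the WT reads came from 2 libraries. Tested without the low-count filter, Ccl5 did not pass (adjusted p = 0.15, edgeR). Cxcl10, the interferon-induced ligand of Cxcr3, had 0, 3 and 3 reads in knockdown and 1, 0, 7 and 0 reads in WT. Cxcl9 and Cxcl11, the other ligands of Cxcr3, had no read in any library.

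Cx3cl1, or fractalkine, is made as a membrane-anchored adhesion molecule whose chemokine head can be cut free, and it draws cells that carry Cx3cr1. It was at 12.8, 13.5 and 14.1 CPM in the knockdown libraries and at 21.7, 19.02, 19.6 and 15.9 CPM in the WT libraries. The groups did not overlap, though WT replicate 4 came close to the knockdown values. The log2 fold change was -0.50 with a 95% interval of -0.85 to -0.16 (adjusted p = 0.0238, edgeR). The fold changes stayed between -0.58 and -0.44 over all 15 alternatives, and the call was lost in 4 of them, without WT replicate 1 and without any 1 of the knockdown libraries (adjusted p from 0.0518 to 0.0827, edgeR). The sheddases Adam10 and Adam17, which release it and were looked up after their values were seen, did not pass. Adam10 was at 113.6 CPM in knockdown and 109.8 CPM in WT, and Adam17 at 159.7 CPM in knockdown and 165.6 CPM in WT. Its gene spans bases 94772009 to 94782427 of chromosome 8, plus strand. Its promoter (RefSeq, GRCm38.p6, chr8:94771930-94772229, plus strand) is shown beside that of Csf1 because both genes fell. Capitals mark a TATAAA match at positions -6 to -1, directly before the RefSeq start. That start, and the match with it, lies inside the GENCODE gene span given above.
Cx3cl1 promoter: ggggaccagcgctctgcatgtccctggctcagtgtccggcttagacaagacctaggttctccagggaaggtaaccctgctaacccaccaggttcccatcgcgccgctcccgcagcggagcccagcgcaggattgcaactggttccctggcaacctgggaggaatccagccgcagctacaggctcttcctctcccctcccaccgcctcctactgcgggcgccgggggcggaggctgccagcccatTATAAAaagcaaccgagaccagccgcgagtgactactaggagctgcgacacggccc

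The genes nearest in profile to Cx3cl1 were Zfp787, Mblac1 and Rps2, at distances of 0.13, 0.16 and 0.17 log2 units. Rps2, a ribosomal protein gene, was at 1024 ± 32.6 CPM in knockdown (SD, n = 3) and 1360 ± 144.2 CPM in WT (SD, n = 4). The zinc finger gene Zfp787 and Mblac1 did not pass the test. Those nearest to Ccl2 were Atrip, Samd8 and Spred1, at 0.099 to 0.11 log2 units, of which Spred1, a Ras pathway inhibitor, passed (log2 fold change -0.20, adjusted p = 0.0225, edgeR). The call of Spred1 was lost in 5 of 15 alternatives, all of which left out 1 library.

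The ligands of Cxcr2 lay on either side of 0. Cxcl5 (90759360 to 90761624) and Cxcl1 (90891241 to 90893115) are on the plus strand of chromosome 5, 129616 bases apart. Cxcl1, also called KC, was at 7.82, 4.505 and 5.20 CPM in the knockdown libraries and at 11.2, 11.3, 6.80 and 9.41 CPM in the WT libraries. Knockdown replicate 1 was above WT replicate 3, so the groups overlapped. The log2 fold change of Cxcl1 was -0.73 with a 95% interval of -1.25 to -0.20 and passed (adjusted p = 0.030, edgeR). The call was lost in 5 of 15 alternatives, among them without knockdown replicate 2 or 3 and without WT replicate 1 or 2 (-0.66 to -0.57, adjusted p from 0.0743 to 0.161, edgeR).

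Cxcl5, also called LIX, was at 13.3, 7.60 and 8.07 CPM in the knockdown libraries and at 9.05, 7.06, 6.93 and 4.62 CPM in the WT libraries. Knockdown replicate 1 was the highest of the 7 for Cxcl5 and the highest of the knockdown libraries for Cxcl1. The log2 fold change of Cxcl5 was 0.48 with a 95% interval of -0.043 to 1.003 and did not pass (adjusted p = 0.17, edgeR). The other ligands Cxcl2 and Cxcl3 were near 0, with 8 and 0 reads over the knockdown group and 0 and 3 over the WT group. The promoter of Cxcl1 (RefSeq, GRCm38.p6, chr5:90890995-90891294, plus strand) is shown as a textbook NF-kB-driven promoter. Capitals mark the run at positions -71 to -61 in which a pair of overlapping matches to the NF-kB consensus lie, 1 on each strand.
Cxcl1 promoter: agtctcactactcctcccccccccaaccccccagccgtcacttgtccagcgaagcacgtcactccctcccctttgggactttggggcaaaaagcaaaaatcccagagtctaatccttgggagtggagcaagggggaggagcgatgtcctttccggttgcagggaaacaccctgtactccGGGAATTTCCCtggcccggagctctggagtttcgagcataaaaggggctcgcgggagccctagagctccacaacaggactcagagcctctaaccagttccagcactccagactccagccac

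Il33, a nuclear alarmin of the interleukin-1 family that signals through Il1rl1 (ST2), had the lowest ratio to WT of the 8 tested genes. Its gene spans bases 29925114 to 29960718 of chromosome 19, plus strand. It had 12, 14 and 10 reads in the knockdown libraries and 90, 95, 93 and 50 reads in the WT libraries. These were 0.72, 0.76 and 0.65 CPM in knockdown and 4.91, 6.45, 6.08 and 2.96 CPM in WT. The groups did not overlap, and WT replicate 4, the lowest of its group, was still above all knockdown libraries. The knockdown mean was 13.9% of the WT mean, a log2 fold change of -2.83 with a 95% interval of -3.76 to -1.90 (adjusted p = 1.1e-05, edgeR). Ranked by fold change, Il33 was number 24 from the lowest of the 11594 tested genes. All 15 alternatives kept the call, with log2 fold changes of -3.02 to -2.70. RefSeq gives Il33 a pair of start sites, and both promoters are shown because gene-level counts cannot tell which of them the reads came from. Capitals mark TATAAA, which lies at positions -203 to -198 from the first start (GRCm38.p6, chr19:29924863-29925162) and at -29 to -24 from the second (chr19:29945540-29945839).
Il33 promoter, first start: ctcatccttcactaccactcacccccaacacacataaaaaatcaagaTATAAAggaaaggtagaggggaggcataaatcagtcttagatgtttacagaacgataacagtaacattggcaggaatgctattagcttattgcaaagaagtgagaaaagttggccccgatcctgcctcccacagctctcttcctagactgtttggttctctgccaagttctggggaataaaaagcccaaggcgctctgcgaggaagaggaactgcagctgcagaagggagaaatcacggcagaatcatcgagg
Il33 promoter, second start: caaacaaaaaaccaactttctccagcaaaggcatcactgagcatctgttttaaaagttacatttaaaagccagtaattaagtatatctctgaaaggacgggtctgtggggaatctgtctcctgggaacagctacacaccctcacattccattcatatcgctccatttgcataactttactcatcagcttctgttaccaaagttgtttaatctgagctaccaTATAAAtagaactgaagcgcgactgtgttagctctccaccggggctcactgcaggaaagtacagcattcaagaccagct

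Il18, a family member that inflammasome caspases activate, was at 1.19, 0.92 and 1.37 CPM in the knockdown libraries and at 2.07, 1.43, 0.98 and 0.89 CPM in the WT libraries. The knockdown range lay within the WT range. Its log2 fold change was -0.21 with a 95% interval of -1.58 to 1.15, so a change of a size like that of Csf1 could not be told from none at this depth (adjusted p = 0.855, edgeR). Without WT replicate 1 the sign turned (0.077, adjusted p = 0.954, edgeR).

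**Figure D2:**
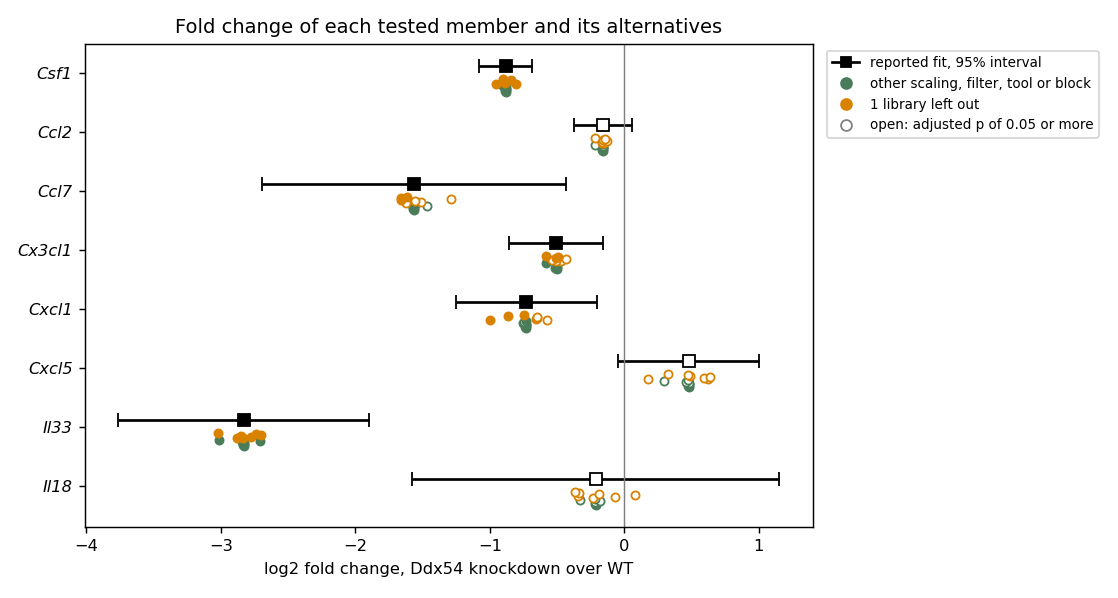
Log2 fold change of knockdown over WT (x axis) for the 8 tested genes (rows), with the reported fit and its 95% interval as a black square and bar, other scalings, filters, tools and the block in green, and fits without 1 library in orange; open symbols did not reach an adjusted p under 0.05. Every point of Csf1 and Il33 is filled, Ccl7, Cx3cl1 and Cxcl1 have both filled and open points, and those of Ccl2, Cxcl5 and Il18 are all open (overlapping open circles can look filled).

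Related genes were also set against each other by the log2 ratio of their counts within each library, which no scaling of libraries can change. The 3 pairs were Ccl7 over Ccl2, Cxcl5 over Cxcl1 and Il33 over Il18, chosen after their values were seen and so given with no test. The log2 ratio of Ccl7 to Ccl2 was -5.47, -5.65 and -5.60 in the knockdown libraries and -4.61, -3.60, -4.56 and -4.18 in the WT libraries. All knockdown ratios were below all WT ratios, with a difference of -1.34 log2 units between the group means. The log2 ratio of Cxcl5 to Cxcl1 was 0.77, 0.75 and 0.63 in knockdown and -0.31, -0.67, 0.027 and -1.02 in WT. Cxcl5 thus had more reads than Cxcl1 in every knockdown library and fewer in 3 of the 4 WT libraries, with a difference of 1.21 log2 units between the group means and no overlap. The log2 ratio of Il33 to Il18 was -0.71, -0.27 and -1.03 in knockdown and 1.23, 2.15, 2.59 and 1.70 in WT. Il18 had the more reads in every knockdown library and Il33 in every WT library, with a difference of -2.59 log2 units. Leaving out 1 library at a time gave differences of -1.46 to -1.12 for Ccl7 over Ccl2, 1.03 to 1.38 for Cxcl5 over Cxcl1 and -2.82 to -2.37 for Il33 over Il18.

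**Figure D3:**
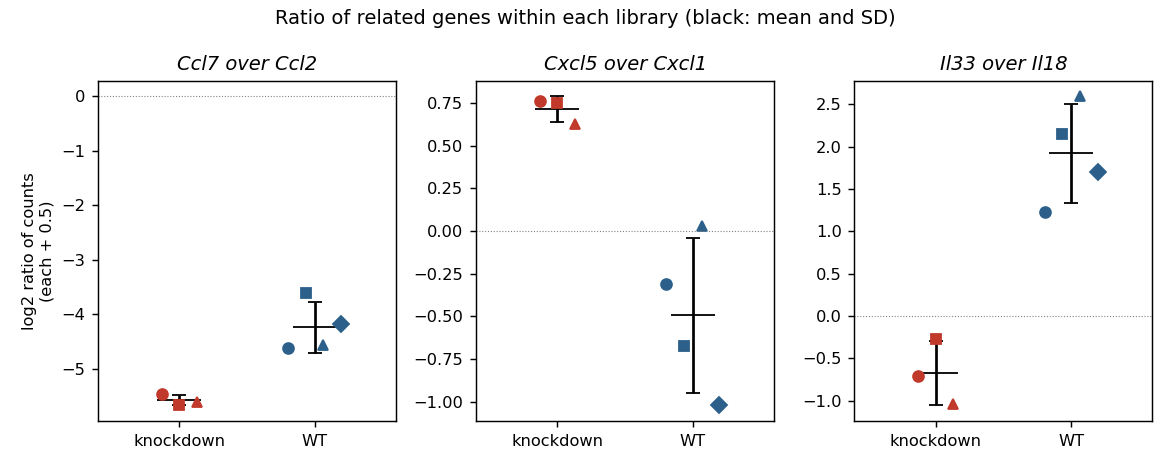
Log2 ratio of read counts, each with 0.5 added, for 3 pairs of related genes (panels) in the knockdown libraries (left, red) and the WT libraries (right, blue), with mean and SD in black; each panel has its own y axis. The knockdown and WT points do not overlap in any of the 3 panels, with knockdown lower for Ccl7 over Ccl2 and Il33 over Il18 and higher for Cxcl5 over Cxcl1.

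The promoter table matched 6 of the 10 genes, with 7 promoters, and Ccl2, Ccl5, Ccl7 and Cxcl5 are named here only. On both strands, 6 motifs were searched: the NF-kB consensus, the AP-1 motif TGANTCA, the cyclic AMP element TGACGTCA, the core of the interferon-stimulated response element, the composite C/EBP-ATF motif TGATGNAA and TATAAA. The NF-kB consensus was found in the promoters of Csf1, Cxcl1 and Cxcl10, against 4.51% of all 32851 promoters of the same length. Cxcl10 also held the AP-1 motif and the interferon core, which 7.81% and 3.44% of all promoters hold. TATAAA was found in Cx3cl1, Il18 and both Il33 promoters, against 13.6% of all promoters. No match to the cyclic AMP element (1.79% of all promoters) or the C/EBP-ATF motif (3.97%) lay in the 7 promoters, which says only that these letters are not in these windows. Of the genes with an NF-kB match, Csf1 and Cxcl1 fell, and Cxcl10 was near 0 in both groups and too low to test. Of those without a match, Cx3cl1 and Il33 fell and Il18 did not pass. A part of NF-kB in these changes was not tested.

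**Figure D4:**
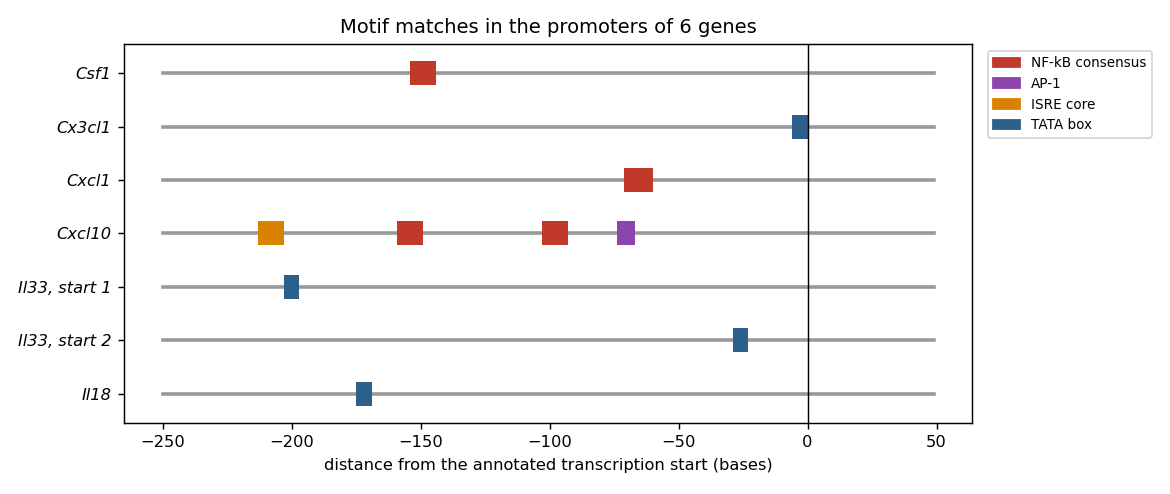
Motif matches (coloured boxes, to scale) along the 7 promoters of 6 genes, plotted by distance in bases from the RefSeq start, from 250 before to 50 after it. The NF-kB consensus (red) appears in Csf1, Cxcl1 and Cxcl10, and TATAAA (blue) in Cx3cl1, Il33 and Il18.

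Other chemokine genes were mostly silent in LLC1. Of 31 further chemokines, 14 had no read, 13 had too few reads to test, 2 were lower in knockdown, 0 were higher and 2 did not pass (median log2 fold change -0.24 over the 4 tested). For this list and those below, the shares over all tested genes were 15.3% lower and 14.1% higher. Ppbp, the precursor of Cxcl7 and also a Cxcr2 ligand, was at 3.88, 3.58 and 2.54 CPM in knockdown and at 6.70, 5.77, 5.16 and 6.16 CPM in WT. Its groups did not overlap (log2 fold change -0.83, adjusted p = 0.0419, edgeR), but the call was lost in 9 of 15 alternatives (adjusted p from 0.0519 to 0.178). Cxcl15, a chemokine known from lung epithelium, had 7, 0 and 5 reads in knockdown and 42, 41, 10 and 27 in WT. It is counted among the 2 lower chemokines, but it reached the minimum for testing only through the WT libraries. Its test result (log2 fold change -2.88, adjusted p = 0.0134, edgeR) is therefore given without weight. The call was also lost without knockdown replicate 2 (-2.28, adjusted p = 0.0826, edgeR).

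Among 30 other cytokines and growth factors that act on immune cells, 13 could be tested, 4 were lower in knockdown, 0 were higher and 9 did not pass (median -0.47). Of all tested genes, 15.3% were lower and 14.1% higher. Spp1, or osteopontin, was at 211.9 ± 28.4 CPM in knockdown (SD, n = 3) and 388.2 ± 20.6 CPM in WT (SD, n = 4). Il11, a cytokine that signals through gp130, was at 16.9 ± 1.66 CPM in knockdown and 32.6 ± 1.21 CPM in WT. The angiogenic factor Vegfa was at 68.5 ± 3.997 CPM in knockdown and 105.7 ± 6.97 CPM in WT, and Kitl, the ligand of the receptor Kit, at 164.5 ± 12.5 CPM in knockdown and 211.2 ± 14.6 CPM in WT. These 4 passed under all 15 alternatives. The classical inflammatory cytokines Tnf, Il1a, Il1b, Il6 and Csf2 had no read in any library.

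Of 27 receptors, 14 had no read, among them Ccr2 and Cxcr3, and 6 could be tested, of which 3 were higher in knockdown, 0 lower and 3 not past the threshold (median 0.084). The shares over all tested genes were 14.1% higher and 15.3% lower. Il1rl1, the receptor of Il33, was at 71.5, 81.2 and 87.0 CPM in the knockdown libraries and at 44.0, 47.2, 48.4 and 45.2 CPM in the WT libraries. All knockdown libraries were above all WT libraries, at 0.79 log2 units (SE 0.098, adjusted p = 1.09e-07, edgeR), so the transcripts of ligand and receptor differed in opposite directions. The call of Il1rl1 held in all 15 alternatives, with log2 fold changes of 0.73 to 0.87. Gene-level counts do not tell the membrane form of Il1rl1 from its soluble form. Its co-receptor Il1rap, looked up after its values were seen, was at 7.71 CPM in knockdown and 11.03 CPM in WT and did not pass (adjusted p = 0.0736, edgeR).

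Il18rap, a chain of the Il18 receptor, was at 115.4 ± 3.63 CPM in knockdown (SD, n = 3) and 90.8 ± 14.2 CPM in WT (SD, n = 4), with a log2 fold change of 0.35 (adjusted p = 0.0038, edgeR). The other chain, Il18r1, had 2 reads over the knockdown group and 0 over the WT group. Cx3cr1, the receptor of Cx3cl1, had 18, 19 and 31 reads in knockdown and 7, 3, 0 and 0 in WT. It is counted among the higher receptors, but it reached the minimum for testing only through the knockdown libraries. Its test result (log2 fold change 3.13, adjusted p = 0.0184, edgeR) is therefore given without weight. Its call was lost without knockdown replicate 3 (2.76, adjusted p = 0.141, edgeR).

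Genes that process or release these proteins gave 2 falls, 0 rises and 9 not past the threshold among 11 tested of 21 listed (median -0.23). The falls are close to the share over all tested genes, 15.3% lower, beside 14.1% higher. Rhbdf2, an iRhom that carries Adam17 to the cell surface, was at 2.33, 4.505 and 4.03 CPM in knockdown and 7.09, 10.9, 6.60 and 11.6 CPM in WT (-1.32, adjusted p = 0.000725, edgeR). The call of Rhbdf2 held in all 15 alternatives. Casp1, which activates Il18, had 8 reads over the knockdown group and 15 over the WT group.

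Of 40 transcription factors and regulators that act on chemokine genes, 39 could be tested, 12 were lower in knockdown, 2 were higher and 25 did not pass (median -0.21). Over all tested genes, 15.3% were lower and 14.1% higher. Bcl3, a nuclear NF-kB cofactor, was at 2.59 ± 0.46 CPM in knockdown (SD, n = 3) and 6.63 ± 1.54 CPM in WT (SD, n = 4). The NF-kB subunit Relb was at 5.07 ± 0.90 CPM in knockdown and 11.6 ± 0.42 CPM in WT, and Cebpd, a C/EBP factor, at 5.12 ± 1.41 CPM in knockdown and 12.6 ± 3.68 CPM in WT. These 3 passed under all 15 alternatives. Other NF-kB genes, looked up after their values were seen, did not all go that way. Rela was at 101.8 ± 9.57 CPM in knockdown and 109.6 ± 5.30 CPM in WT and did not pass (adjusted p = 0.353, edgeR). Nor did Nfkb1 and Nfkbia (log2 fold changes -0.22 and 0.10, adjusted p = 0.248 and 0.348, edgeR). Nfkb2 was lower (-0.54, adjusted p = 0.00132, edgeR), with groups that did not overlap. Chuk was higher (0.36, adjusted p = 0.0419, edgeR), but its groups overlapped. Irf9, a subunit of the interferon-activated complex ISGF3, was higher, at 14.4, 9.55 and 10.3 CPM in knockdown and 3.71, 8.42, 4.71 and 6.99 CPM in WT. Its call was lost without knockdown replicate 1 (log2 fold change 0.74, adjusted p = 0.0822, edgeR).

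**Figure D5:**
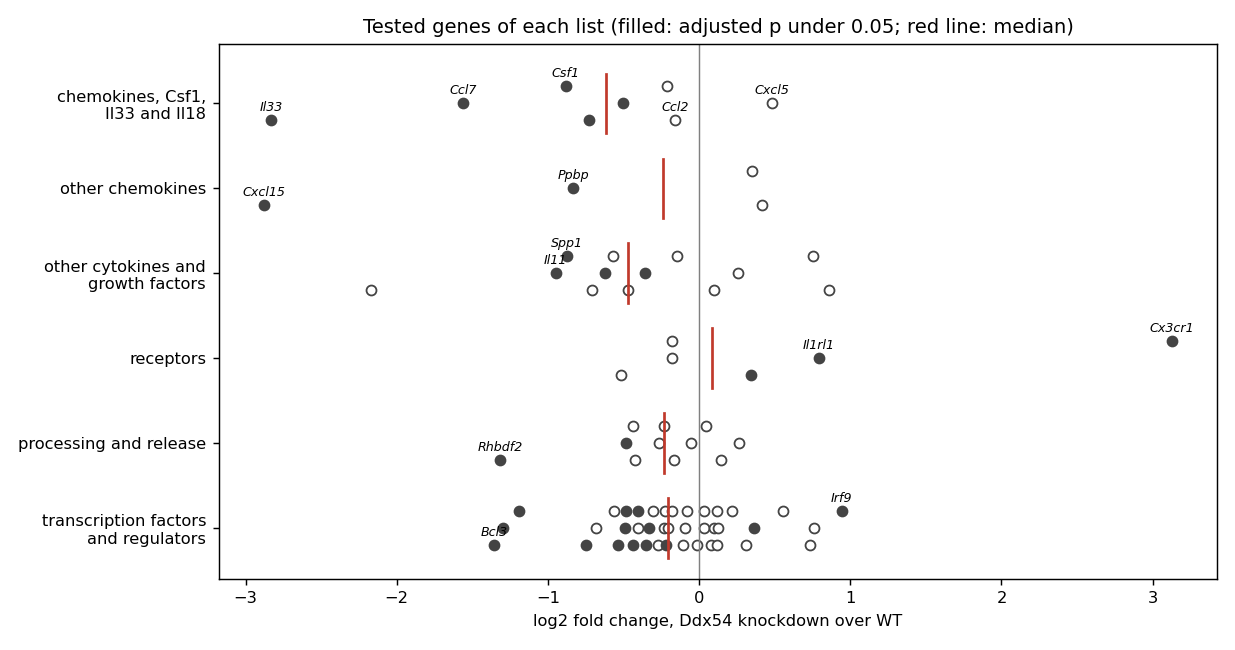
Log2 fold change of knockdown over WT (x axis) for each tested gene of 6 lists (rows), filled where the adjusted p was under 0.05, with the list median as a red line; vertical spread only separates points. The red medians run from -0.62 for the chemokines with Csf1, Il33 and Il18 to 0.084 for the receptors, where Il1rl1, Il18rap and Cx3cr1 are the filled points, all to the right of 0. Cx3cr1 and Cxcl15 entered the test only through the group in which they were higher.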

How the data were processed

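Polyadenylated RNA of 3 knockdown and 4 WT libraries was sequenced. The authors deposited unnormalized read counts in 1 table of 24419 gene symbols with 0 further sample columns. The submitters' processing notes list Trimmomatic, STAR, HTSeq and mm10, with neither role nor version. Annotation, strand setting and multimapping were not given in the sources used here, so a gene's reads and those antisense to it may be mixed. The single-cell experiment that the series describes was not analysed here.

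Genes were kept by filterByExpr (minimum count 10), which left 11594, and the main test was edgeR 4.0.16 (R 4.3.3), robust quasi-likelihood with TMM factors and no covariate, with Benjamini-Hochberg adjustment over all tested genes. CPM used TMM-scaled library sizes. Log2 ratios of gene pairs used a prior count of 0.5 reads. The fit was first tested on simulated data. Alternatives were scaling by RLE or upper quartile, leaving the filter out, requiring 50 counts in 3 libraries, limma-voom (3.58.1), DESeq2 1.42.0, a block for the replicate number, Rn45s removed, and leaving out each library. Positions and lengths come from GENCODE M21 (GRCm38), promoters from RefSeq (GRCm38.p6), and the start of a gene can differ between them, as for Cx3cl1 and Il18.

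The genes and lists were chosen with earlier results of these data known. In each list the 4 strongest passing genes at most were named, and all markers reaching 1 CPM. Genes looked up after their values were seen were named besides. Some genes of the lists are not reported here by name. The 3 nearest profiles were taken for the 3 genes of highest mean CPM over the 7 libraries, not set per length. Libraries of a group differed beyond sampling noise (chi-square over its degrees of freedom, 8.52 to 16.9).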

Additional observations from a re-analysis of the deposited data

Results flagged for a closer look

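Among the 4 WT libraries, 57 quantities were searched for a library far from the others. There were 3, where chance gives about 2.85.

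Ccl7 was at 4.48 CPM in WT replicate 2, against 2.34 to 2.61 CPM in the other WT libraries. Cxcl10 was at 0.458 CPM in WT replicate 3, which is 7 reads, against 0 to 0.055 CPM in the others. Krt19 was at 0.651 to 1.69 CPM in the knockdown libraries, and at 3.66 CPM in WT replicate 3, against 4.52 to 4.69 CPM in the other WT libraries.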

How the results depend on the processing

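The pair ratios and their alternatives were chosen after seeing the data, and the other alternatives were planned. Over all alternatives the genes higher in knockdown numbered 1222 to 1716 and those lower 1409 to 1860, and Ddx54 stayed at -0.93 to -0.83 log2 units with its call. Of the 10 genes, 0 were higher in every alternative. The number lower, 5 as reported, was 3 under the replicate block and 2 to 5 with 1 library left out. It was 2, Csf1 and Il33, without knockdown replicate 2 or 3. Same-numbered libraries did not deviate together (correlations of -0.033 to 0.0013), so the block rests on a number only. It lost the calls of Ccl7 (-1.56, adjusted p = 0.0781), Cxcl1 (-0.74, 0.0528), Ppbp (-0.83, 0.0769), Cxcl15 (-2.90, 0.0633) and Cx3cr1 (2.83, 0.116, edgeR). No other call was lost among the named genes followed through the alternatives, which leave out Nfkb2 and Chuk. Adding 2 reads instead of 0.5 gave pair differences of -1.26 for Ccl7 over Ccl2, 1.19 for Cxcl5 over Cxcl1 and -2.46 for Il33 over Il18. Signs turned only in genes that had not passed. With 1 library left out, Il18 ran from -0.37 to 0.077, Krt8 from -0.079 to 0.35, Cd68 from -0.14 to 0.23, Eng from -0.094 to 0.16 and Adam10 from -0.017 to 0.096. With the block Cd68 was -0.015 and Pdgfrb 0.21, and with limma-voom Pdgfrb was 0.23. With the longest transcript as the length, 8 of the 10 genes held their place in the WT order, and Cx3cl1 stood above Cxcl1. Ccl7, Il33 and Il18 rest on few reads, which leaves wide intervals.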
